A study of Mus musculus with 28 samples.

Results

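The NRF2 targets and antioxidant enzymes described here are 10 genes taken by name: Nfe2l2, Nqo1, Hmox1, Gclc, Gclm, Txnrd1, Srxn1, Cat, Sod1 and Sod2. Every probe whose gene name in the array files was 1 of these was included, which gave 16 probes for the 10 genes, among 21862 genes tested. The rule goes by name alone, but the names were chosen with earlier results of these data known. All 16 probes were well above background on all 28 arrays, so no member was lost to the filter on dim probes. Nfe2l2, Srxn1 and Sod1 had 3 probes each, and the other 7 genes had 1.

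Liver RNA was measured on 1 Agilent array per mouse in male C57/6J mice that began their diets when 7 weeks old, ate them for 26 weeks and reached 33 weeks. The 5 groups were a standard diet (SD, 5 mice), a high fat diet (HFD, 6 mice), and that high fat diet with 0.4% quercetin (HQ, 5 mice), with 0.4% resveratrol (HR, 6 mice) or with 0.2% of each compound (HQR, 6 mice). HFD, HQ, HR and HQR thus share the high fat diet, and HQR carries a smaller dose of each compound than HQ or HR. Per the labels, degraded RNA of 2 mice had been left out. The arrays lay on 9 slides scanned on 4 days, between 59.4% and 82.1% of their probes were well above background; their number limits how small a difference can be told. All 7 measured hepatocyte markers were well above background on every array. All 7 had lower means in HQ and in HR than in SD, as did 5 in HFD and 6 in HQR. None passed an adjusted p of 0.05 in these comparisons. Levels below are on a log2 scale on which 0 is the array's own 75th percentile and 1 unit is a doubling. They can be compared between livers for 1 probe, not between probes. In whole liver RNA, fewer cells of a type and less RNA per cell cannot be told apart.

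NRF2, the protein made from Nfe2l2, is a transcription factor that the adaptor KEAP1 normally hands over for degradation. Oxidants and reactive electrophiles disarm KEAP1, and NRF2 then accumulates, pairs with a small MAF protein and binds antioxidant response elements in the promoters of genes for glutathione synthesis, thioredoxin recycling, quinone reduction and heme breakdown. The liver uses this programme against reactive drugs and metabolites. Catalase and the superoxide dismutases remove hydrogen peroxide and superoxide, and depend less on NRF2 than the classical targets do. Quercetin and resveratrol are plant polyphenols that have been reported to raise NRF2 activity in cultured cells. The question that the design poses for these genes is whether a high fat diet moves them and whether either compound, or both together, moves them from the high fat state.

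No member passed an adjusted p of 0.05 in any of the 10 pairwise comparisons of diets, nor in the test over all 5 groups. The smallest values were those of Gclm, the modifier subunit of the enzyme that limits glutathione synthesis. Its level was lowest in HQ, at 0.612 times the SD level (95% interval 0.463 to 0.808) and 0.620 times the HR level (0.475 to 0.808). Txnrd1, the cytosolic thioredoxin reductase, was at 0.70 times its HFD level in HQ (0.533 to 0.918) and at 0.754 times in HR (0.591 to 0.962), and at 1.01 times in HQR (0.790 to 1.28). Hmox1, the heme oxygenase that oxidants induce, was at 1.76 times its SD level in HR (1.04 to 2.96). Each of these had an unadjusted p under 0.05 in limma apart from Txnrd1 in HQR, and none held after adjustment over all genes.

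The core of the antioxidant response element, TGACNNNGC, was looked for on both strands of the RefSeq promoter windows (build GRCm38.p6), which run from 250 bases before a gene's start to 50 bases after it. Of the 8 members with a window, 5 held the core (62.5%), and of all 32851 windows 12.4% did, as did 14.0% of genes with a window and 16.1% of the tested genes with a window. Hmox1 and Gclc are not in the table. The matches are shown as a sequence feature only. Most of the genes were named as targets of NRF2, which binds this element. Their share is therefore not independent of the choice of genes. Each line gives the match in capitals with 10 bases to either side, on the strand of the gene.
Nfe2l2: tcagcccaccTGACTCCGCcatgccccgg
Gclm: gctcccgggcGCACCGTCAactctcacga
Txnrd1: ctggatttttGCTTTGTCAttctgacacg
Srxn1: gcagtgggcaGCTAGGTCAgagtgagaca
Sod1: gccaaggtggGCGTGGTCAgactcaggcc
In the Nfe2l2 stretch (chr2:75704885-75704913, flanks included) the match begins at position -240 from the start base and is the one that reads along the gene's own strand. In the stretches of Gclm (chr3:122245413-122245441), Txnrd1 (chr10:82859104-82859132) and Sod1 (chr16:90220696-90220724) the matches begin at positions -134, -92 and -56, on the opposite strand. In the Srxn1 stretch (chr2:152105542-152105570) it begins at position 28, on the opposite strand as well. Txnrd1 has 3 windows, and the second of them holds the match. The windows of Nqo1, Cat and Sod2 hold no match to these letters. A match is a run of letters and not a measured binding site.

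Nfe2l2, which encodes NRF2 itself, had group means between 4.67 (HR) and 5.03 (HFD). Its main probe lies at chr2:75513771-75513830 (mm9, the build of the array files, minus strand). In SD the livers were at 5.51, 4.75, 4.51, 4.75 and 4.83, and in HQ at 5.14, 5.22, 4.90, 5.26 and 4.46. HFD livers ran from 4.79 over a median of 4.95 to 5.37, HR livers from 3.59 over 4.80 to 5.32, and HQR livers from 4.44 over 4.93 to 5.22. All groups overlapped, and the liver at 3.59, HR 1, stood below every other liver. HFD exceeded SD by 0.16 ± 0.24 (difference ± standard error, log2), HQ differed from HFD by -0.03 ± 0.24, HR by -0.36 ± 0.23 and HQR by -0.13 ± 0.23. The order of the means was HFD, HQ, HQR, SD, HR, and no neighbours in it differed beyond their spread.

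The second Nfe2l2 probe, from the same transcript, lies at chr2:75513917-75513976 and followed the first across the 28 livers (Pearson r 0.88, Spearman rho 0.93). The third, drawn from another cDNA at chr2:75529947-75530006, followed it less closely (r 0.39, rho 0.36). The third probe gave HQR minus HFD as -0.59 ± 0.28 (adjusted p = 0.991, limma), with group means of -1.75 ± 0.54 (SD, n = 6) in HQR and -1.16 ± 0.35 (SD, n = 6) in HFD. The first and second probes gave -0.13 ± 0.23 and -0.24 ± 0.26 for the same comparison.

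Gclc and Gclm encode the catalytic and the modifier subunit of glutamate-cysteine ligase, which makes the first intermediate of glutathione. Gclc (chr9:77641296-77641355, plus strand) had the narrowest span of group means among the members, 0.17, from 6.63 ± 0.32 (SD, n = 5) in SD to 6.81 ± 0.42 (SD, n = 6) in HR. Single livers ran from 5.91 in HQR 4 to 7.47 in HR 6. Against HFD, the differences of HQ, HR and HQR were 0.01 ± 0.24, 0.04 ± 0.23 and 0.00 ± 0.23. The 95% intervals of all 3 lay within 0.712 to 1.43 times the HFD level.

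Gclm was read by a single probe, whose 60 bases span 2636 bases of the genome at chr3:121962174-121964809 and so cross a splice junction. Its sequence is given because it is the only measurement behind the smallest p-values among the members.
Gclm probe: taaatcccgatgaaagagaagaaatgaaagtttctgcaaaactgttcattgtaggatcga
SD livers were at -1.45, -1.54, -1.63, -1.85 and -1.25, and HQ livers at -2.78, -2.59, -1.52, -2.17 and -2.22. The HFD livers ran from -2.19 over a median of -1.80 to -1.70, the HR livers from -2.04 over -1.62 to -1.05, and the HQR livers from -1.96 over -1.82 to -1.62. Of the HQ livers, 4 of 5 lay below every SD liver, and the remaining one, HQ 3, lay among them. Every HFD and every HQR liver lay below the SD mean of -1.54 ± 0.22 (SD, n = 5).

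The Gclm level of HQ differed from that of SD by -0.71 ± 0.20 (adjusted p = 0.511, limma) and from that of HR by -0.69 ± 0.19 (adjusted p = 1). It differed from HFD by -0.39 ± 0.19 (adjusted p = 1), and HQR lay above it by 0.42 ± 0.19 (adjusted p = 1). HFD differed from SD by -0.32 ± 0.19, HR differed from HFD by 0.30 ± 0.18, and HQR differed from HFD by 0.03 ± 0.18. From high to low the group means were SD, HR, HQR, HFD and HQ. With slide as a block the difference of HQ from SD was -0.90 (adjusted p = 0.124), and within the 2 slides that hold both groups it was -1.32 and -0.54. Within the 3 slides that hold HQ and HR the difference was below 0 each time, between -1.54 and -0.14. These sizes depended on the processing. With array weights, which count arrays that fit the model poorly for less, HQ minus SD was -0.43, HQ minus HR -0.36, HQ minus HFD -0.10 and HQR minus HQ 0.12, and of the 4 only HQ against SD kept an unadjusted p under 0.05. With normexp, HQ minus SD was -0.19, HQ minus HR -0.23, HQ minus HFD 0.08 and HQR minus HQ -0.06, while the median over all genes moved to 0.19, 0.12, 0.25 and -0.17. Across the 28 fits that leave out 1 array, HQ minus SD stayed between -0.89 and -0.58, and the unadjusted p was under 0.05 in all 28. For HQ against HFD it was under 0.05 in 11 of the 28, between -0.57 and -0.26. Only the fits without an array of the 2 groups compared can move such a difference. The other fits repeat the difference and change only its standard error.

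**Figure D1:**
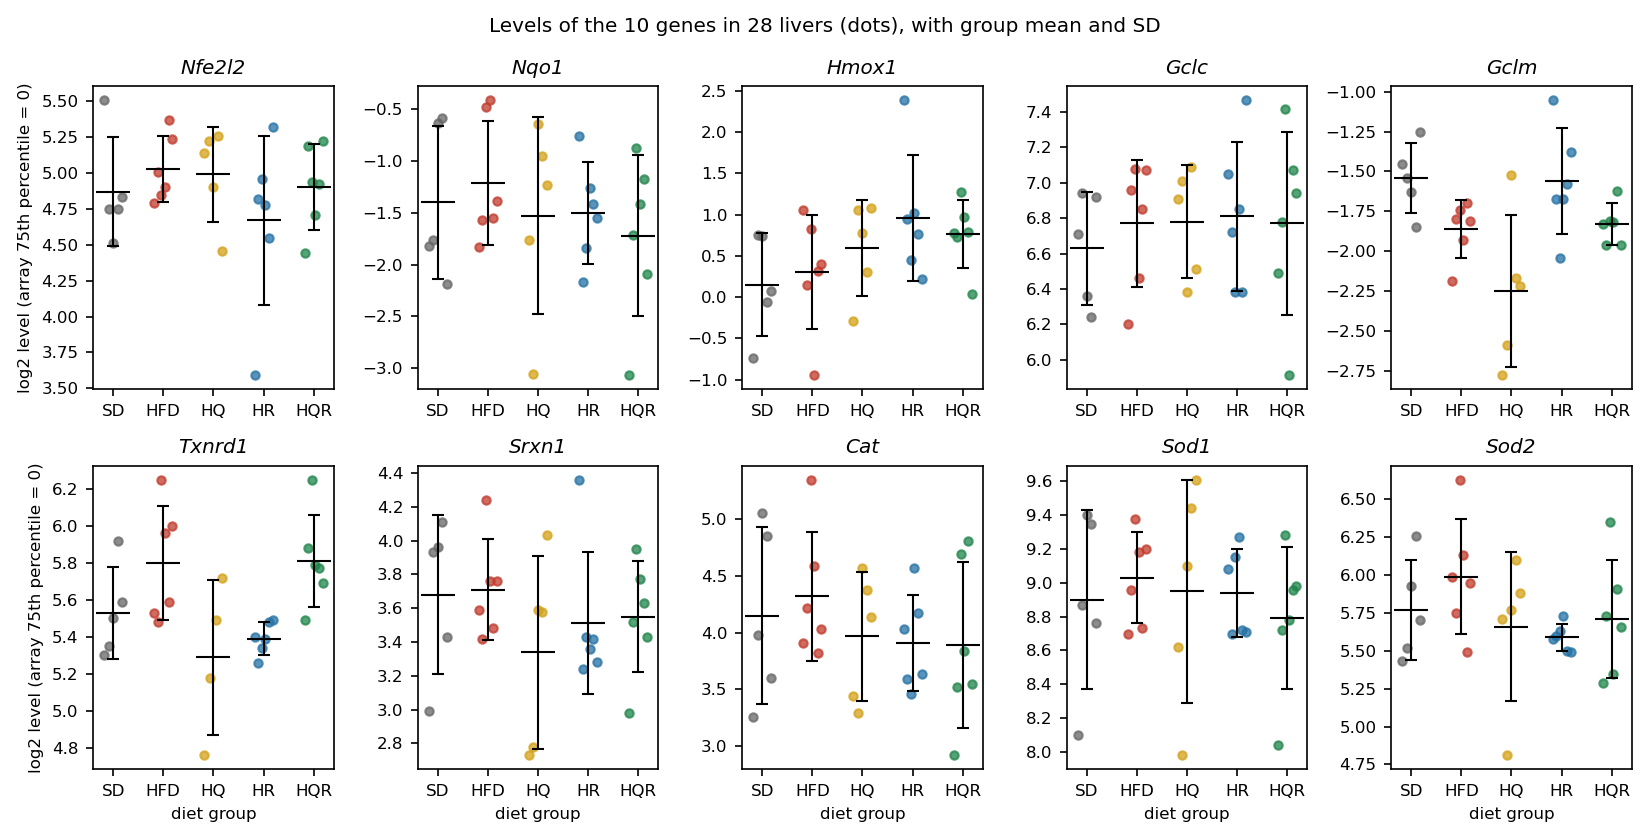
Log2 level of each of the 10 genes in every liver (dots), by diet group on the horizontal axis, relative to the 75th percentile of the array; black bars are the group mean and SD. The groups overlap in all panels, the Gclm level of 4 of 5 HQ livers lies below every SD liver, and 1 HR liver stands high for Hmox1 (2.39) and Srxn1 (4.36) and low for Nfe2l2 (3.59).

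Txnrd1 reduces thioredoxin with NADPH and is a selenoprotein. Its probe lies at chr10:82360230-82360289 (plus strand). SD livers were at 5.30, 5.35, 5.50, 5.92 and 5.59. HQ livers were at 4.76, 5.18, 5.49 and 5.72, and the spot of HQ 5 was an outlier in its scan and is left out, so that HQ rests on 4 livers. HFD livers ran from 5.48 over 5.77 to 6.25, HR livers from 5.26 over 5.40 to 5.49, and HQR livers from 5.49 over 5.78 to 6.25. The HR livers lay close together, with an SD of 0.09, and all 6 were below the HFD mean of 5.80 ± 0.31 (SD, n = 6). HFD and HQR had nearly the same mean, and the HQ, HR and SD means lay below both.

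For Txnrd1, HQ differed from HFD by -0.51 ± 0.19 (adjusted p = 1, limma) and HR differed from HFD by -0.41 ± 0.17 (adjusted p = 0.947). HQR was above HQ by 0.53 ± 0.19 (adjusted p = 1) and above HR by 0.42 ± 0.17 (adjusted p = 1). HFD differed from SD by 0.27 ± 0.18. The direction of HR against HFD was the same on all 4 slides that hold both, between -0.87 and -0.10, and the difference was -0.49 with slide as a block (adjusted p = 0.284). In that fit Txnrd1, Cat and Sod2 had an unadjusted p under 0.05 in HR against HFD, as did 11.1% of all genes. HQ and HFD shared 1 slide with a usable spot, where the difference was -0.77. Under normexp the difference of HQ from HFD was -0.92 and that of HR from HFD -0.66, while the median over all genes moved to 0.25 and 0.17. Under quantile normalization the Txnrd1 differences were -0.41 and -0.29. Scaling to the array median gave -0.50 and -0.43, both with an unadjusted p above 0.05. Slide accounted for 46.9% of the variance of Txnrd1 among livers and diet group for 42.2%. The medians over all genes were 51.3% and 10.1%. Such shares are not adjusted for the number of slides or groups. As groups were spread unevenly over slides, the slide and group shares overlap and cannot be set side by side.

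Srxn1 encodes sulfiredoxin, which restores peroxiredoxins that hydrogen peroxide has overoxidised. The group means of its main probe (chr2:151936919-151936978) lay between 3.34 ± 0.57 (SD, n = 5) for HQ and 3.71 ± 0.30 (SD, n = 6) for HFD. HQ differed from HFD by -0.37 ± 0.25, HR by -0.19 ± 0.24 and HQR by -0.16 ± 0.24, and HFD from SD by 0.02 ± 0.25. Among the 6 HR livers, 5 lay between 3.24 and 3.43, and HR 1 was at 4.36. The other Srxn1 probes lie at chr2:151935232-151935291 and chr2:151935185-151935244 and overlap each other by 13 bases. Across livers they followed the main probe with r of 0.51 and 0.58. They put HQ at -0.06 ± 0.20 and -0.05 ± 0.25 from HFD, and HFD at -0.16 ± 0.20 and -0.21 ± 0.25 from SD, so the probes differ in size and, for HFD against SD, in direction.

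Nqo1 encodes the quinone reductase often used as a readout of NRF2 activity (probe at chr8:109912440-109912499, minus strand). Its group means ran from -1.72 ± 0.78 (SD, n = 6) in HQR to -1.21 ± 0.60 (SD, n = 6) in HFD. Single livers spanned a 6.31-fold range, from -3.07 in HQR 1 to -0.41 in HFD 4. HFD minus SD was 0.19 ± 0.42, and HQ, HR and HQR minus HFD were -0.32 ± 0.42, -0.29 ± 0.40 and -0.52 ± 0.40. The interval of HQR against HFD reached from 0.397 to 1.23 times, the lowest bound among the members.

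Hmox1 encodes heme oxygenase, which breaks heme into biliverdin, iron and carbon monoxide and is found in Kupffer cells as well as hepatocytes. Its probe lies at chr8:77624207-77624266 (plus strand). SD livers were at -0.74, 0.75, 0.74, -0.06 and 0.07, and HQ livers at -0.29, 1.06, 0.78, 0.30 and 1.08. The HFD livers ran from -0.95 over 0.36 to 1.05, the HR livers from 0.22 over 0.85 to 2.39, and the HQR livers from 0.04 over 0.78 to 1.27. From low to high the means stood in the order SD, HFD, HQ, HQR, HR, from 0.15 ± 0.62 (SD, n = 5) to 0.96 ± 0.76 (SD, n = 6), and no neighbours in that order differed beyond their spread. All 6 HR livers were above the SD mean, and the groups overlapped.

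HR exceeded SD in Hmox1 by 0.81 ± 0.37 (adjusted p = 0.794, limma) and HFD by 0.67 ± 0.35 (adjusted p = 1). HQ and HQR exceeded HFD by 0.29 ± 0.37 and 0.46 ± 0.35. Without HR 1, HR minus SD was 0.53, with an unadjusted p above 0.05, and HR minus HFD was 0.38. With HR 1 kept, HR minus SD was 0.53 under normexp, 0.58 with array weights and 0.79 with scaling to the array median, each with an unadjusted p above 0.05. With slide as a block, HR minus SD was 0.70 (adjusted p = 0.746). All 11 measured Kupffer cell and macrophage markers were higher in HR than in HFD, with a median difference of 0.45. In HQ and in HQR, 10 of the 11 were higher than in HFD, with medians of 0.24 and 0.20. Of all genes, 47.9%, 50.9% and 41.5% were below 0 in HR, HQ and HQR against HFD. None of the 11 markers passed in these comparisons. In HR against HFD, 3 had an unadjusted p under 0.05 in limma (4.92% of all genes). Against SD, 9 of 11 were higher in HR, with a median of 0.25, and 8 of 11 with a median of 0.09 with slide as a block. All but Timd4 were well above background on every array. Their summed signal, in multiples of the 75th percentile, ran from 18.1 to 45.6 in SD, 11.3 to 22.0 in HFD, 16.9 to 31.5 in HQ, 20.9 to 45.4 in HR and 16.6 to 32.6 in HQR. Across the 28 livers, the mean log2 level of these markers and Hmox1 had r = 0.45 and rho = 0.33, and r = 0.20 without the 2 livers farthest from the median of the marker level. The 9 sinusoidal endothelial markers were also all higher in HR than in HFD (median 0.56), and higher in HR than in SD (median 0.70). In HQ all 9 were higher than in HFD (median 0.39), and in HQR 8 were (median 0.23). None of the 9 passed in these comparisons. Other marker lists had an r with Hmox1 of similar size: 0.45 for adipocyte markers (rho 0.18), 0.36 for bile duct, 0.34 for stellate, 0.32 for sinusoidal endothelial and 0.30 for neutrophil markers. With 2 livers left out in the same way, r was 0.02, 0.17, 0.25, 0.43 and 0.27 in that order. Of 4 adipocyte and 4 neutrophil markers, only 1 and 3 were well above background on every array. With slide means subtracted, r was 0.59 for neutrophil, 0.48 for adipocyte and 0.42 for macrophage markers. The part of these cells in the Hmox1 difference was not tested.

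**Figure D2:**
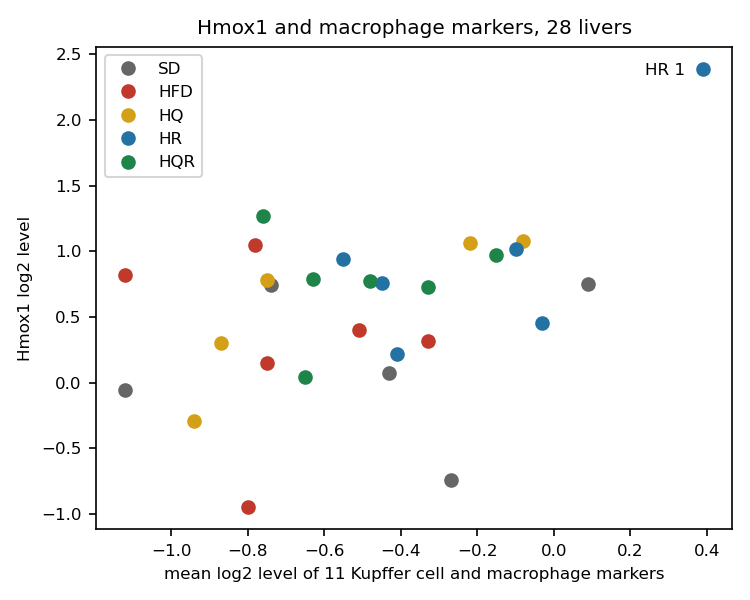
Log2 level of Hmox1 against the mean log2 level of 11 Kupffer cell and macrophage markers, 1 point per liver, coloured by diet group. HR 1 is the highest liver on both axes; across all 28 livers Pearson r is 0.45 and Spearman rho 0.33.

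Cat encodes peroxisomal catalase, which breaks down hydrogen peroxide (probe at chr2:103294660-103294719, minus strand). Its group means lay between 3.89 ± 0.73 (SD, n = 6) in HQR and 4.32 ± 0.57 (SD, n = 6) in HFD, and single livers spanned a 5.39-fold range. HFD minus SD was 0.17 ± 0.36, and HQ, HR and HQR minus HFD were -0.36 ± 0.36, -0.41 ± 0.35 and -0.43 ± 0.35. Within slides, HR was below HFD on all 4 that hold both, between -0.79 and -0.18, and with slide as a block that difference was -0.56 (adjusted p = 0.439, limma). Nfe2l2, Nqo1, Txnrd1, Srxn1, Sod1 and Sod2 were also lower in HR than in HFD on all 4 slides. Gclm was higher on all 4, and Hmox1 and Gclc went both ways. The share over all genes was not counted.

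Sod2 encodes the manganese superoxide dismutase of mitochondria (probe at chr17:13208074-13208133, plus strand). HFD had the highest mean, 5.99 ± 0.38 (SD, n = 6), and HR the lowest, 5.59 ± 0.09 (SD, n = 6). HR minus HFD was -0.40 ± 0.21 (adjusted p = 1, limma), and all 6 HR livers were below the HFD mean. With slide as a block the difference was -0.42 (adjusted p = 0.409). HQ and HQR minus HFD were -0.34 ± 0.22 and -0.28 ± 0.21, and HFD minus SD was 0.22 ± 0.22. In HFD against SD, Cat and Sod2 were each above 0 on all 4 slides that hold both groups, between 0.23 and 0.65 for Cat and between 0.23 and 0.56 for Sod2. Txnrd1 (0.12 to 0.41) and Sod1 (0.03 to 0.60) were above 0 on all 4 as well. These genes varied together across livers, so these are not separate readings.

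Sod1 encodes the cytosolic copper-zinc superoxide dismutase. Its main probe (chr16:90226497-90226556, plus strand) had group means between 8.79 ± 0.42 (SD, n = 6) in HQR and 9.03 ± 0.27 (SD, n = 6) in HFD. No comparison moved it by more than 0.23. The other Sod1 probes come from a cDNA clone that the array files describe as having an apparent retained intron, at chr16:90223273-90223332 and chr16:90224181-90224240. They are printed because their values differ from those of the main probe.
Sod1 probe 2: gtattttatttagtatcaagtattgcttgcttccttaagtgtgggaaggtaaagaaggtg
Sod1 probe 3: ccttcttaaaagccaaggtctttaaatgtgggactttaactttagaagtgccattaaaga
Probe 2 had means of -3.40 ± 0.48 (SD, n = 5) in SD, -2.83 ± 0.39 (SD, n = 6) for HFD, -3.25 ± 0.33 (SD, n = 5) with HQ, -2.87 ± 0.64 (SD, n = 6) in HR and -3.50 ± 0.52 (SD, n = 6) in HQR. It put HFD above SD by 0.57 ± 0.29 (adjusted p = 0.831, limma) and gave HQR minus HFD as -0.67 ± 0.28 (adjusted p = 0.991). Probe 3 gave 0.54 ± 0.35 and -0.45 ± 0.33 for the same comparisons, and the main probe 0.13 ± 0.26 and -0.23 ± 0.25. The retained intron probes followed each other across livers with r = 0.69 and followed the main probe with r of 0.41 and 0.62. Neither passed after adjustment over all probes, and whether the probes differ in their response was not tested.

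**Figure D3:**
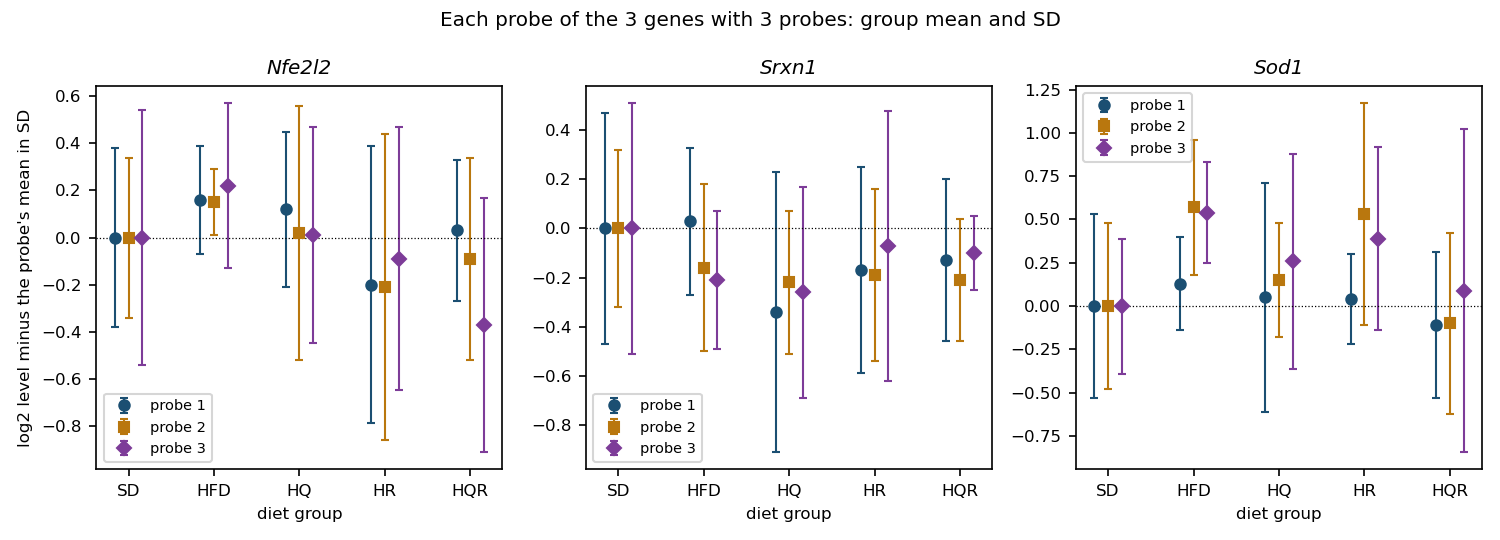
Group mean and SD of each probe of Nfe2l2, Srxn1 and Sod1, after subtraction of the probe's own SD-diet mean, by diet group. The SDs overlap throughout; in the Sod1 panel, the retained intron probes 2 and 3 lie 0.57 and 0.54 above SD in HFD and the main probe lies 0.13 above it.

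Read by comparison, no member was called between the high fat and the standard diet. In HFD against SD, 0 of 10 members passed the adjusted threshold in limma, with 0.114% of all genes passing, and 0 had an unadjusted p under 0.05, with 6.14% of all genes doing so. The second 0 depended on the fit. In limma the unadjusted p was 0.0444 for Gclm with slide as a block (adjusted p = 0.445). It was 0.0197 for Txnrd1 under quantile normalization. Shares over all genes in those fits are not given here. Of the 10, 9 had a difference above 0 (44.6% of all genes did), with a median of 0.15 and -0.04 over all genes, and Gclm was the exception. That count of 9 was the same under quantile, array median and normexp processing and in the deposited value table, was 7 with array weights, and was 5 without SD 1. The 95% intervals of the members ran from 0.615 times for Gclm to 2.06 times for Nqo1.

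With quercetin, 0 of 10 members passed in HQ against HFD (0% of all genes passed), and 2 had an unadjusted p under 0.05, Txnrd1 and Gclm, both lower in HQ (2.13% of all genes had such a p). Of the members 8 were below 0, as were 50.9% of all genes, with a median of -0.33 and 0.00 over all genes. The count below 0 was 6 to 8 over the same kind of alternatives, and the exceptions in the main fit were Hmox1 and Gclc. With resveratrol, 0 of 10 passed in HR against HFD (0.00915% of all genes) and 1, Txnrd1, had an unadjusted p under 0.05 (4.92%). There, 7 members were below 0 (47.9% of all genes), with a median of -0.24 and 0.01 over all genes. With both compounds at the smaller dose, 0 of 10 passed in HQR against HFD (0% of all genes) and 0 had an unadjusted p under 0.05 (1.36%). Again 7 were below 0 (41.5% of all genes), with a median of -0.14, and 5 to 9 were below 0 over the 15 alternative settings that keep all arrays. These 3 comparisons share the HFD arrays, as HFD against SD does, so their directions are not independent of each other. Nor are the members: Nqo1, Txnrd1, Srxn1, Cat, Sod1 and Sod2 varied together across livers (r from 0.50 to 0.86). The counts of members above or below 0 are thus not counts of separate readings in any of the 4 comparisons. No member had groups that did not overlap in any of the 4 comparisons, with 1.33%, 0.165%, 0.389% and 0.0915% of all genes doing so.

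**Figure D4:**
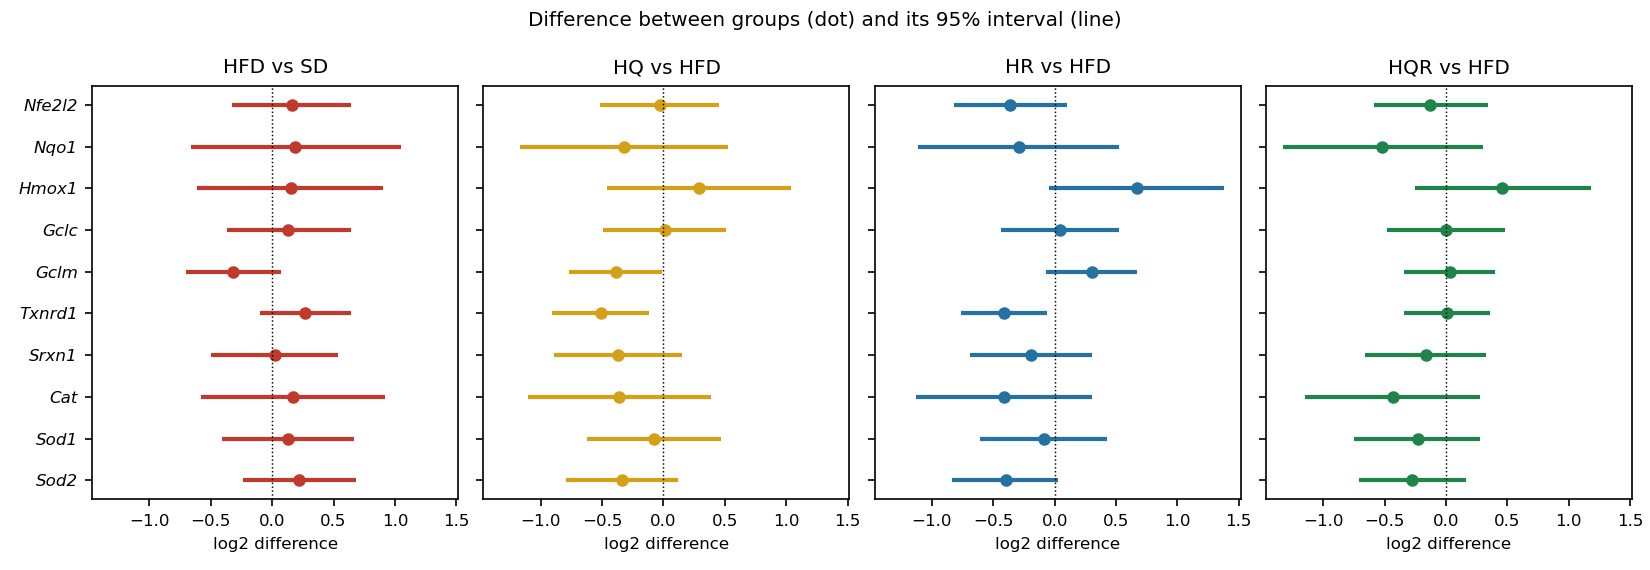
Log2 difference (dot) and 95% interval (line) of the 10 genes in HFD against SD and in HQ, HR and HQR against HFD. Most intervals cover 0; those of Gclm and Txnrd1 in HQ and of Txnrd1 in HR do not, and none of the 3 passed after adjustment over all genes.

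Between the supplemented diets, HQ and HR hold the same dose of different polyphenols and can be compared directly. Gclm was the 1 member of 10 with an unadjusted p under 0.05 there (1.29% of all genes), and 0 passed (0% of all genes). Intervals of HQ against HR for the members ran from 0.457 times for Hmox1 to 1.78 times for Nqo1. HQR had 2 members with such a p against HQ, Txnrd1 and Gclm (1.43% of all genes), and 1 against HR, Txnrd1 (2.77%), with 0 passing in either (0% of all genes). Against SD, HQ had 1, Gclm (3.91%), HR had 1, Hmox1 (5.72%), and HQR had 0 (6.43%). None of the members passed in these last 3 comparisons, with 0.0366%, 0.0549% and 0.0503% of all genes passing. The 0 of HQR against SD depended on the fit as well. In limma the unadjusted p was 0.00569 for Txnrd1 under quantile normalization and 0.0498 for Gclm with slide as a block. In the test over the 5 groups, Gclm (adjusted p = 0.730) and Txnrd1 (adjusted p = 1, limma) had an unadjusted p under 0.05, 2 of 10 members against 3.96% of all genes, and 0 passed (0.105%).

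The wider pathway was described with 9 lists of 96 genes chosen by name, of which 95 were measured (Ugt1a6a was not). The lists were chosen with earlier results of these data known, so their counts are not independent of the data. None of the 95 passed in any of the 10 comparisons in limma, and of each list the gene with the smallest p is named, for HFD against SD and for each supplemented diet against HFD. Over all lists and all 10 comparisons the adjusted p of the genes with the smallest p lay between 0.0723 and 1. In HFD against SD, 10 of the 95 had an unadjusted p under 0.05, in HQ against HFD 4, in HR against HFD 8 and in HQR against HFD 0, where 6.14%, 2.13%, 4.92% and 1.36% of all genes did. For the 12 regulators of NRF2, such as Keap1, the smallest p in HFD against SD was that of Bach2, a repressor that competes for the same elements (0.91 ± 0.23, adjusted p = 0.195), and in HR against HFD it was Bach2 again (-0.49 ± 0.22). In HQ and HQR against HFD they were Maff (-0.56 ± 0.36) and Rbx1 (-0.46 ± 0.28). Among the 9 genes of glutathione synthesis and reduction, Chac1, which degrades glutathione, had the smallest p in HFD against SD (1.65 ± 0.46, adjusted p = 0.290) and in HQ against HFD (-0.70 ± 0.49). Oplah (0.47 ± 0.24) and Ggct (-0.25 ± 0.19) had it in HR and HQR. None of the 9 had an unadjusted p under 0.05 against HFD.

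The 14 glutathione transferases, which attach glutathione to electrophiles, held 4 genes of 14 with an unadjusted p under 0.05 in HFD against SD (6.14% of all genes), and the NRF2 regulators held 3 of 12. Mgst3 had the smallest (1.04 ± 0.26, adjusted p = 0.174). In HQ, HR and HQR against HFD the smallest were Gsta2 (-0.71 ± 0.30), Gsta3 (-0.51 ± 0.16) and Gstm2 (-0.32 ± 0.20). Of 17 other detoxification genes that NRF2 induces, the smallest p were those of Htatip2 in HFD against SD (-0.52 ± 0.24) and of Cbr1 in HQ (-0.61 ± 0.25), Ces1g in HR (-0.64 ± 0.24) and Cyp2a5 in HQR (-0.71 ± 0.36) against HFD. The last list's medians were within 0.15 of 0 in these comparisons.

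The 13 peroxidases and further superoxide dismutase genes had 0 members with an unadjusted p under 0.05 in the same 4 comparisons. Their smallest p were those of Prdx6 in HFD against SD (0.21 ± 0.29), Gpx3 in HQ (0.49 ± 0.36) and Gpx7 in HR (0.33 ± 0.25) and HQR (0.43 ± 0.25). The 8 other genes of the thioredoxin system had 0 as well, and Txn1, thioredoxin itself, had the smallest p each time, at 0.45 ± 0.26 in HFD against SD and -0.46 ± 0.26, -0.48 ± 0.25 and -0.28 ± 0.25 in HQ, HR and HQR against HFD. Taldo1 led the 6 NADPH-producing enzymes in all 4, at 0.32 ± 0.16 in HFD against SD and, for HR against HFD, at -0.49 ± 0.15 (adjusted p = 0.738). In HQ and HQR it was at -0.32 ± 0.16 and -0.20 ± 0.15. Among 10 heme and iron genes, Slc40a1, the iron exporter, led in HFD against SD (0.46 ± 0.18), Blvrb in HQ (-0.73 ± 0.29) and HQR (-0.39 ± 0.27), and Fech in HR (-0.28 ± 0.16). The 6 targets of the aryl hydrocarbon receptor, a sensor that flavonoids can bind, had 0 with an unadjusted p under 0.05 in the same comparisons. Cyp1a1 had the smallest p in HFD against SD (0.64 ± 0.44) and in HQ (-0.74 ± 0.44), Tiparp in HR (0.31 ± 0.15) and Ahrr in HQR (0.34 ± 0.23).

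In HR against SD, Gstm2 came closest to the threshold of all 95 genes (-1.0 ± 0.21, adjusted p = 0.0723), and Slc40a1 (0.70 ± 0.18) and the exporter gene Abcc4 (1.07 ± 0.28) each had an adjusted p = 0.245. In HQR against SD the smallest p was again that of Gstm2 (-0.75 ± 0.21, adjusted p = 0.223), and in HQ against SD that of Bach2 (0.93 ± 0.24, adjusted p = 0.473). Between the supplemented diets it was that of Htatip2 for HQ against HR (-0.64 ± 0.24) and for HQR against HR (-0.64 ± 0.23), and that of Gsta2 for HQR against HQ (0.86 ± 0.30), each with an adjusted p = 1.

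The members did not vary as a single block from liver to liver. Nqo1, Txnrd1, Srxn1, Cat, Sod1 and Sod2 went up and down together: the 15 pairs among them had Pearson r from 0.50 to 0.86 and Spearman rho from 0.54 to 0.88. With the slide means subtracted, r ran from 0.28 to 0.79, and without the 2 livers farthest in 1 gene of the pair from 0.43 to 0.85. Gclc had r between -0.07 and 0.29 with the other 9 members, and Gclm between -0.34 and 0.38. The 2 subunits of the same ligase had r = 0.12 and rho = 0.17 with each other. Nfe2l2 had r = -0.65 with Hmox1 (rho -0.49), and r was -0.34 without HR 1 and SD 1. These are descriptions over 28 livers, 27 for Txnrd1, that share slides and labelling, and the grouping was made after the values were seen.

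**Figure D5:**
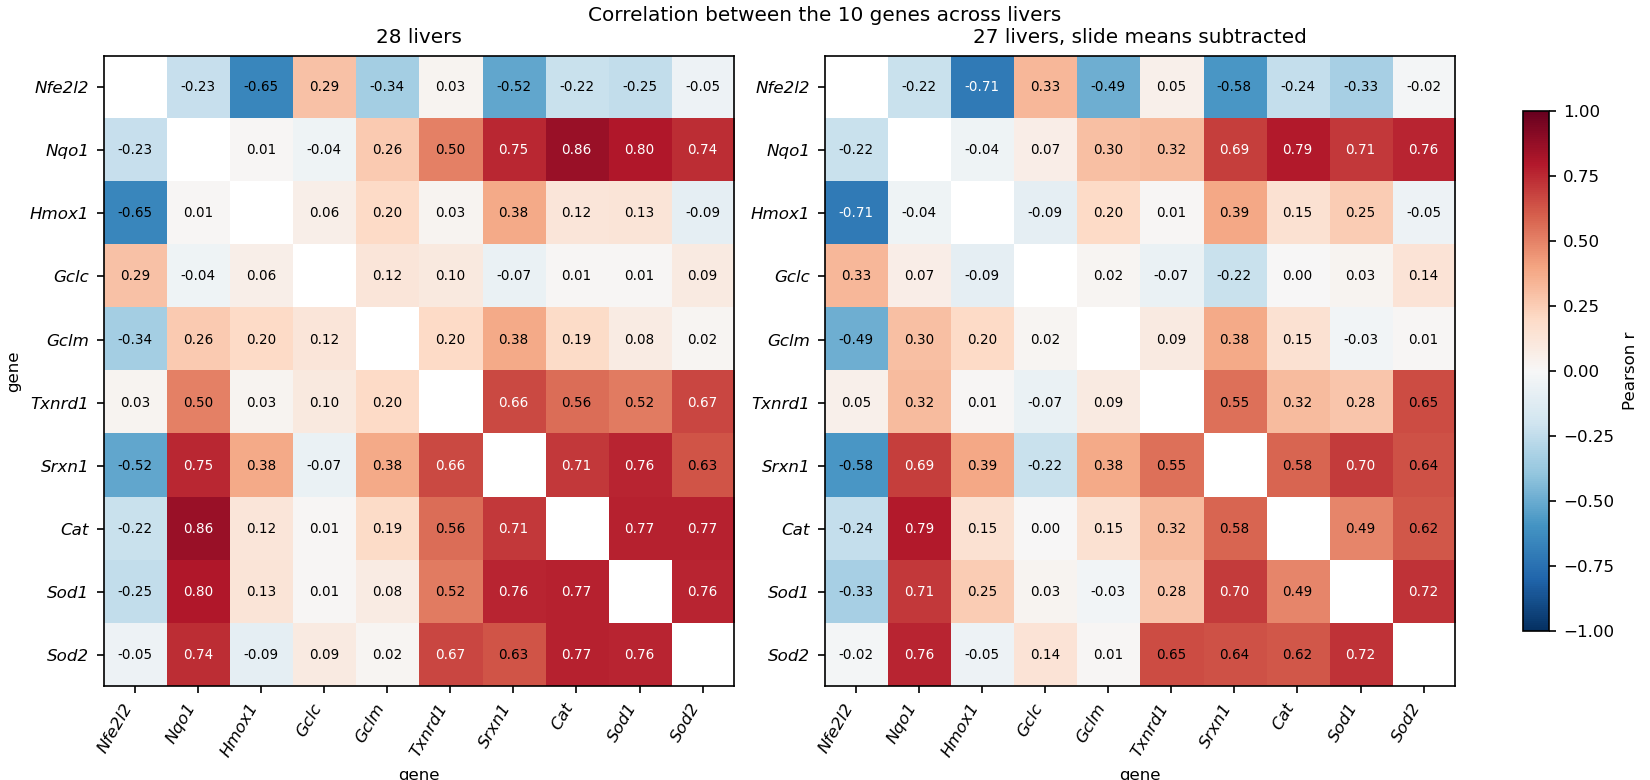
Pearson r between each pair of the 10 genes across livers (left) and after subtraction of the mean of each slide (right, without the liver that was alone on its slide); pairs with Txnrd1 have 1 liver fewer. Nqo1, Txnrd1, Srxn1, Cat, Sod1 and Sod2 form a red block with r from 0.50 to 0.86 on the left, while Gclc and Gclm have r of at most 0.29 and 0.38 with any other member.

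Of that block, Cat, Sod1, Nqo1 and Sod2 followed the main axis of variation of the whole data set more closely than the median gene did. Srxn1 followed it about as closely as the median gene, and Txnrd1 less closely. The first principal component over all genes held 42.0% of the variance, and its r was 0.83 with Cat, 0.77 with Sod1, 0.73 with Nqo1, 0.69 with Sod2, 0.54 with Srxn1 and 0.39 with Txnrd1. Over all genes the median size of r with it was 0.53. For Gclc, Gclm, Hmox1 and Nfe2l2 it was -0.01, 0.03, 0.10 and -0.20. Slide accounted for 66.1% of the variance of Sod1, 60.8% of that of Cat and 54.1% of that of Sod2. For Nqo1, Txnrd1 and Srxn1 the share was 48.2%, 46.9% and 35.1%, and the median over all genes was 51.3%. For Hmox1, Gclc, Gclm and Nfe2l2 the share was 28.6%, 28.5%, 18.9% and 17.2%. None of these shares is adjusted for the number of slides, which alone gives a share above 0. Cat, Sod2, Nqo1, Srxn1, Sod1 and Txnrd1 had r of 0.67, 0.63, 0.59, 0.59, 0.56 and 0.54 with the mean hepatocyte marker level. With slide means subtracted, these were 0.49, 0.42, 0.41, 0.47, 0.22 and 0.37. For Gclc, Hmox1, Nfe2l2 and Gclm, r was -0.29, -0.21, -0.09 and 0.07. The part of slide in the shared variation was not tested beyond the slide means above, and that of hepatocyte content was not tested.

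The genes most like each member were taken as the 2 with the highest Pearson r over the livers. They were picked out of all genes tested, so a high r was built into the choice. For Nfe2l2 they were 4932433N03Rik (r 0.86) and Nsd3 (0.85), for Nqo1 the array transcript NAP057024-1 (0.94) and Hint1 (0.93), and for Hmox1 Tyrobp (0.81) and S100a11 (0.76). Tyrobp encodes a signalling adaptor of myeloid cells. For Gclc they were the transcripts BU531328 (0.78) and AK084936 (0.73), and for Gclm AK052496 (0.69) and Rab11fip4 (0.65). For Txnrd1 they were Nudt19 and Phc2 (0.87 each), and for Srxn1 Fth1 (0.90), the ferritin heavy chain, and Ctsd (0.89), the lysosomal protease cathepsin D. For Cat they were Rnf128 and Nek7 (0.94 each), for Sod1 the transcript AV118365 (0.97) and Polr2l (0.96), and for Sod2 1810037I17Rik and Ola1 (0.95 each). No member was among the closest genes of another. Spearman rho for these pairs ran from 0.55 for Gclm with Rab11fip4 to 0.95 for Sod1 with AV118365. For Nfe2l2 with 4932433N03Rik it was 0.69, and for Gclc with BU531328 it was 0.62. The genes named for Nqo1, Srxn1, Cat, Sod1 and Sod2 had r between 0.68 and 0.85 with the first principal component. The share of genes with r over 0.7 ran from 0% for Gclm and 0.00923% for Gclc to 7.60% for Cat and 7.79% for Sod1.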

How the data were processed

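Liver RNA of 28 mice, 1 one-colour array each, was analysed from scanner files. Per the file headers, Feature Extraction 10.5.1.1 made the processed intensity of each spot, with background subtracted. The deposited value table holds a score per probe and array with no stated scale; it matched the log2 processed values after multiplication by 3.25 and served as an alternative. Per array, log2 processed intensity minus its 75th percentile was taken; control spots and spots marked as outliers were left out (Txnrd1 in HQ 5). Probes well above background on at least 5 arrays were kept (32095), and the probe with the highest mean stood for its gene, giving 21862 genes. Array names were updated through RefSeq by accession (25097 probes), symbol (6333) or synonym (1640), and 8104 kept the array name.

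All 5 groups were fitted in 1 model with limma 3.58.1 (R 4.3.3), two-sided, with Benjamini-Hochberg adjustment over all genes and a threshold of 0.05; the script was tested on simulated data. The members and gene lists were chosen with earlier results of these data known. All members are named; where no gene of a pathway list passed, the gene with the smallest p is named, for each list in HFD against SD and in the comparisons with HFD, and over all lists in the other 6 (Slc40a1 and Abcc4 in HR against SD were added after their values were seen), and for each member the 2 genes with the highest r. Same-numbered livers deviated together in HFD against SD, where the 5 pairs had correlations from 0.217 to 0.698, a pattern in the data that no label states; in the other 9 comparisons not every pair did. Alternatives changed the scaling, background correction (normexp, offset 50), probe filter, probe choice, spread estimate, array weights, or slide or replicate block. Others left out 1 array.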

Additional observations from a re-analysis of the deposited data

Results flagged for a closer look

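In 50 combinations of a member and a diet group, the highest or lowest liver was set against the others of its group, and 2 stood apart by Dixon's test at the 95% level. Both were in the same liver, HR 1. Its Hmox1 level was 2.39, and the other 5 HR livers lay between 0.22 and 1.02. Its Srxn1 level was 4.36, and the other 5 lay between 3.24 and 3.43. Chance flags about 1 in 20 such groups. The same liver had the lowest Nfe2l2 level of all 28 livers (3.59), the highest Gclm level (-1.05) and the highest mean level of the macrophage markers (0.39).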

How the results depend on the processing

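No member passed an adjusted p of 0.05 in any of the 43 alternatives to the limma fit; the smallest adjusted p, 0.105, was that of Gclm in HQ against SD with slide as a random block (-0.77). In the 15 alternatives that keep all arrays, 97 of 1500 member differences over all 10 comparisons turned direction. For the 46 differences followed one by one, 661 of 690 values kept their direction and 29 did not. These 46 were all members in HFD against SD and in the comparisons with HFD, and 6 more of Gclm, Txnrd1 and Hmox1. The causes were not tested. The 690 and the 1500 both include settings that could not change a member difference, so agreement there was fixed in advance. Such settings altered the probe filter, tested every kept probe, fitted only the 2 groups compared, or used an intensity trend with robust estimation. The mean of all probes could not change genes with 1 probe. The replicate block could not change differences among HFD, HR and HQR, which hold the same replicate numbers. With array weights, HQ minus HFD was -0.11 for Gclc, 0.03 for Nqo1 and 0.06 for Sod1, HQR minus HFD was 0.15 for Gclc and 0.06 for Nfe2l2, HR minus HFD was -0.04 for Gclc, and HFD minus SD was -0.13 for Hmox1 and -0.06 for Srxn1. With normexp, HQ minus HFD was -0.30 for Gclc, 0.08 for Gclm and 0.10 for Nqo1, HR minus HFD -0.22 for Gclc, HQR minus HQ -0.06 for Gclm and HQR minus HFD -0.06 for Txnrd1. In the deposited value table, HQR minus HFD was 0.09 for Gclc and -0.02 for Gclm, HQ minus HFD 0.06 for Nfe2l2 and 0.08 for Sod1, and HR minus HFD 0.07 for Sod1. Quantile normalization gave 0.05 for Gclc in HQR and 0.02 for Nfe2l2 in HQ against HFD. Scaling to the array median gave -0.04 for Gclm and -0.06 for Txnrd1 in HQR against HFD. For Nfe2l2, HQ minus HFD was 0.15 with slide as a block, 0.05 with it as a random block and 0.04 with the replicate block; for Txnrd1, HQR minus HFD was 0.00 under both slide fits. The mean of all probes put Srxn1 at -0.12 in HFD against SD. The replicate block changed no call. For Gclm in HQ against SD it gave -0.71 (adjusted p = 0.499, limma). It could not have changed that difference, as both groups hold the same replicate numbers. Leaving out 1 array moved HFD minus SD from -0.05 to 0.40 for Cat, -0.08 to 0.40 for Hmox1, -0.01 to 0.39 for Nqo1, -0.07 to 0.26 for Sod1 and -0.15 to 0.13 for Srxn1. It moved HQ minus HFD from -0.10 to 0.11 for Gclc, -0.10 to 0.10 for Nfe2l2, -0.54 to 0.06 for Nqo1 and -0.24 to 0.17 for Sod1. It moved HR minus HFD from -0.09 to 0.13 for Gclc, and HQR minus HFD from -0.13 to 0.17 for Gclc, -0.03 to 0.06 for Gclm and -0.08 to 0.10 for Txnrd1. Over all genes, those passing ranged from 10 to 81 in HFD against SD (25 as reported), 0 to 8 in HR against HFD (2), 0 to 9 in HQR against HFD (0), 0 to 1 in HQ against HFD (0), 0 to 18 in HQ against SD (8), 0 to 49 in HR against SD (12), 6 to 108 in HQR against SD (11) and 9 to 63 in the test over 5 groups (23).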
